A study of Homo sapiens with 6 samples.

Results

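The small nucleolar RNAs (snoRNAs) U3, U8 and U13 were followed in small RNA sequencing of K562 cells with and without over-expression of RUNX1. They were taken by name from the table of counts, as the entries SNORD3A, SNORD3B-1, SNORD3B-2, SNORD3C and SNORD3D for U3, SNORD118 for U8, and SNORD13 and snoU13 for U13. These are 8 of the 28846 annotated small RNAs in the table. Upon RUNX1 over-expression the U8 gene SNORD118 fell and the snoU13 entry rose, SNORD13 did not pass the test, and the U3 copies were practically without counts. A separate entry with the bare name U8 had more counts than SNORD118 in all 6 samples and rose 7.76-fold, and the sum of both rose.

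Most box C/D snoRNAs guide the methylation of riboses in ribosomal RNA, but U3, U8 and U13 belong to the few that act in the making of the ribosome itself. U3 base-pairs with the precursor of the small-subunit ribosomal RNA and is required for the cleavages that release it. U8 is required for processing of the large-subunit ribosomal RNAs, and U13 guides the acetylation of a cytidine in the small-subunit ribosomal RNA. Unlike most snoRNAs, which are cut out of introns of host genes, all of these are transcribed from genes of their own.

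K562 is a human erythroleukemia cell line that can be driven towards erythroid or megakaryocytic cells. The control cells carried the empty lentiviral vector SIEW, from which only GFP is made, and the RUNX1 cells carried the same vector with human RUNX1 in addition to GFP, so both groups were transduced and both expressed GFP. Each group held 3 samples from independent transductions of this line, grown in RPMI medium with fetal calf serum and harvested at day 10. The counts cover small RNAs only, so the RUNX1 transcript was not measured and the over-expression was not checked here.

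The sequences of U3 and U8 show how far short reads can tell the entries apart. The U3 copy SNORD3A is 217 bases long and is shown whole, with capitals at the 4 positions where at least 1 of the other copies has another base.
SNORD3A: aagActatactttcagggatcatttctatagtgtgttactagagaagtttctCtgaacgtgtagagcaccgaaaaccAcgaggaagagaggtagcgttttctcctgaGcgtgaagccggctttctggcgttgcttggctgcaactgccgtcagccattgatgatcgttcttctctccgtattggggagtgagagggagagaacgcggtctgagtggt
Counted from 1 at the 5′ end of SNORD3A, SNORD3B-1 and SNORD3B-2 carry A78C, SNORD3C carries G108A, and SNORD3D carries A4G, C53T and A78C. The copies are therefore 99.54% identical to SNORD3A, except SNORD3D with 98.62%. All 198 windows of 20 bases in SNORD3A, and all 188 windows of 30 bases, occur in another of the copies, and 148 of the 168 windows of 50 bases do. SNORD3C has 20 windows of 20 bases that are found neither in the other copies nor in SNORD118 or SNORD13, and SNORD3D has 24. The 5 genes lie within 128334 bases of chromosome 17 of GRCh38 in GENCODE 29. SNORD3A is at chr17:19188016-19188232 on the plus strand. SNORD3D, at chr17:19112420-19112636 on the minus strand, lies in an exon of the long noncoding RNA AC007952.4. None of the other copies lies wholly within another annotated gene, and partial overlap was not checked.

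SNORD118 is 134 bases long, lies at chr17:8173454-8173587 on the minus strand and overlaps an untranslated region of TMEM107 on the same strand. Reads of TMEM107 from this stretch therefore cannot be told apart from those of SNORD118. Neither SNORD118 nor SNORD13 shares a window of 20 bases with the U3 copies or with the other, and snoU13, which has no gene of that name in GENCODE 29, was not part of this comparison. Stretches of 30 bases around the letters TGATGA, which form the core of box C and are in capitals, show the element that U8 and U3 have in common. The stretch of SNORD118 is at chr17:8173516-8173545 on the minus strand, and that of SNORD3A at chr17:19188161-19188190 on the plus strand.
SNORD118: cagattagaacaTGATGAttggagatgcat
SNORD3A: gccgtcagccatTGATGAtcgttcttctct
The motif was searched on the strand of the RNA only, and it occurs once in each of SNORD118, SNORD13 and the 5 U3 copies, from base 55, base 23 and base 158. It occurs in 77.1% of 275 genes named SNORD and in 3.5% of 142 genes named SNORA, the H/ACA class of snoRNAs. The letters CTGA, the core of box D, occur near the 3′ end of each of these RNAs. They start at base 130 of SNORD118, base 99 of SNORD13 and base 209 of the U3 copies. They also start at base 116 of SNORD118, base 104 of the U3 copies and, in all of these but SNORD3D, base 53. Counted anywhere in the gene, they occur in 98.2% of the SNORD genes and in 47.2% of the SNORA genes. A match of such short letters is a description and not a mapped site.

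The table also holds the bare names U3 and U8, which the choice by name left out and which are called the U3-named and the U8-named entry here, and snoU13 stands beside SNORD13. The same names are used for Rfam families of related loci, and the loci counted under each name are not given in the sources used here. In GENCODE 29 the Rfam family of U8 covers 22 further genes on 12 chromosomes, 10 of which share a window of 20 bases with SNORD118. The family of U3 covers 51 genes on 18 chromosomes, 22 of which share such a window with SNORD3A, and that of snoU13 covers 31 genes on 15 chromosomes, 11 of which share one with SNORD13. Of the 115 windows of SNORD118, 61 occur in at least 1 of these U8 loci. No single locus shares more than 22 of them, and the median over the loci is 0. Counts under the bare names are therefore given beside those of the named genes, and as sums where stated.

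Total counts ranged from 1618248 to 6193319 in the control samples, with replicate 1 far below the other two, and from 7918551 to 15245007 in the RUNX1 samples. The floor of 3 counts, the upper limit that a count of 0 allows, lay between 0.26 and 1.43 CPM. CPM give a count relative to the total count of its library, after the library sizes were scaled by TMM, edgeR's normalization between libraries. Such floors and all intervals cover counting error only. Counts on all snoRNA entries took 11.56% ± 0.303 (SD, n = 3) of the control counts and 6.65% ± 0.598 of the RUNX1 counts. The groups thus differed by -4.91 percentage points (two-sided exact permutation test, p = 0.1). With 3 samples in each group this test cannot give a lower p than 0.1. RUNX1 replicate 3 stood apart from its group, with 143 of 947 tested small RNAs more than 1.5 times above both other RUNX1 samples and 88 as far below them, against 16 to 30 above and 21 to 61 below in the other 5 samples. The names of the control and RUNX1 libraries carry different letters, and if these mark preparations, preparation and RUNX1 cannot be told apart. All 4 erythroid microRNAs checked, miR-451a, miR-144-3p, miR-144-5p and miR-486-5p, were present in every sample, with a summed level of 4427 to 5062 CPM in control and 2332 to 3695 CPM in RUNX1 cells. Of these, miR-144-3p rose from 120 ± 14.4 to 242 ± 14.8 CPM (log2 fold change 1.02, adjusted P-value 0.000221), whereas the other 3 fell, with log2 fold changes of -0.58 to -0.84. Of 4 microRNAs of other tissues, miR-124-3p was at 0 and miR-122-5p and miR-133a-3p were near 0, whereas miR-375 was detected in every sample, and the list summed to 67.9 to 75.9 CPM and 171 to 209 CPM. The part of these differences in the results below was not tested, and more RNA per cell cannot be told apart from more cells that make it.

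To determine which of these snoRNAs were altered by RUNX1, the thresholds of the study were used, a P-value under 0.05 together with a change of 0.5 or more on the log2 scale, up or down, with edgeR's quasi-likelihood test over all small RNAs. Of the 8 entries, 3 had counts enough to be tested. SNORD118 was down-regulated, snoU13 was up-regulated and SNORD13 was not altered, so 2 of the 3 were altered, and the samples of both groups did not overlap for these 2. This has to be read against a background in which 57.6% of all 947 tested small RNAs and 59.1% of the 230 tested snoRNAs were altered. The groups did not overlap for 64.8% of the tested small RNAs and for 73.5% of the snoRNAs, so that neither count sets these RNAs apart from the rest. The median log2 fold change was -0.13 for the 3 entries, -0.16 for the tested snoRNAs and -0.06 for all tested small RNAs.

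The U8 gene SNORD118 was lower in RUNX1 cells. SNORD118 had 80, 285 and 249 counts in the control samples, which are 38.2, 35.4 and 32.8 CPM. In the RUNX1 samples it had 159, 129 and 140 counts, which are 13.8, 20.6 and 20.4 CPM. Each control sample lay above each RUNX1 sample, and RUNX1 replicate 1, the most deeply sequenced library, was the lowest. The mean level was 35.5 ± 2.74 CPM (SD, n = 3) in control and 18.3 ± 3.89 CPM in RUNX1 cells, a 1.94-fold lower level (log2 fold change -0.96, SE 0.19, adjusted P-value 0.00214). The decrease was also found without RUNX1 replicate 3, with a log2 fold change of -0.97, and was smallest without RUNX1 replicate 1, with -0.75.

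**Figure D1:**
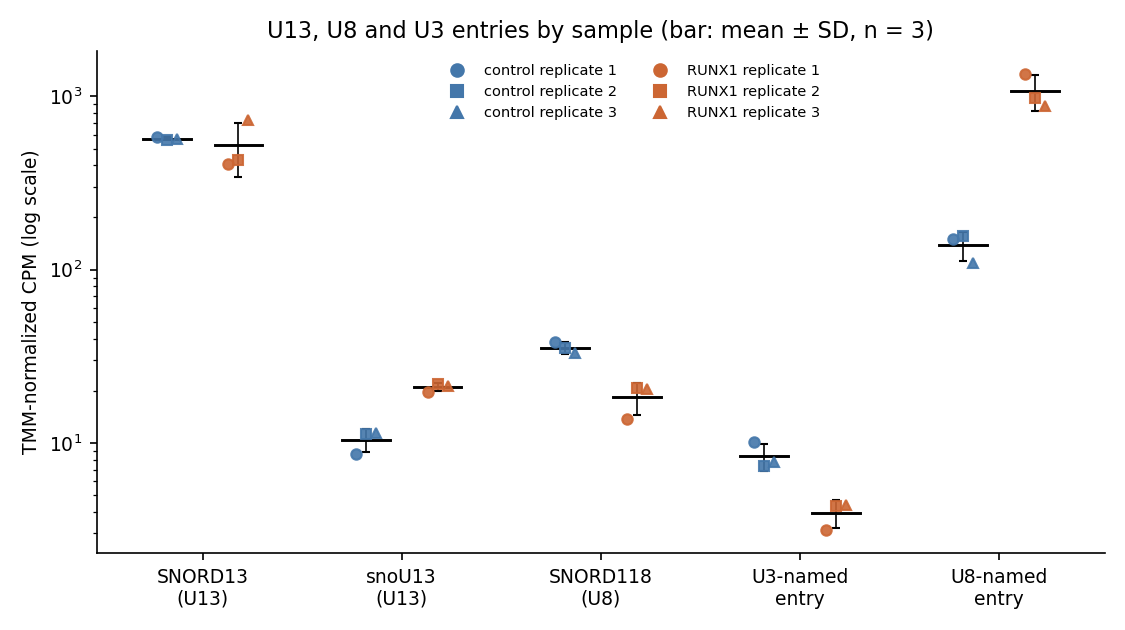
Level of each entry with counts in every sample, in TMM-normalized CPM on a log scale, with control samples in blue and RUNX1 samples in orange, bars for the mean and whiskers for the SD (n = 3). SNORD118 and the U3-named entry were lower and snoU13 and the U8-named entry higher in all RUNX1 samples, whereas RUNX1 replicate 3 lay above and the other 2 below the control samples for SNORD13.

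The U8-named entry moved the other way. It had 313, 1263 and 825 counts in the control samples, or 150, 157 and 109 CPM, and 15628, 6094 and 6053 counts in the RUNX1 samples, or 1355, 975 and 883 CPM. Even the lowest RUNX1 sample was far above the highest control sample. The mean level rose 7.76-fold, from 138 ± 26 CPM to 1071 ± 250 CPM (log2 fold change 2.96, SE 0.22, adjusted P-value 5.62e-06). Since this entry had more counts than SNORD118 in all 6 samples, the sum of both followed it and rose by a log2 fold change of 2.65 (SE 0.20, adjusted P-value 7.33e-06). The direction reported for U8 is thus that of the SNORD118 gene, and it turned when the counts of the bare name were added.

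The 2 entries can be compared within each sample without any scaling between libraries. The U8-named entry had 3.91, 4.43 and 3.31 counts for each count of SNORD118 in the control samples and 98.3, 47.2 and 43.2 in the RUNX1 samples. The log2 ratio was 1.94 ± 0.21 in control and 5.87 ± 0.65 in RUNX1 cells, and the difference of 3.92 was larger than the spread of either group (exact permutation test, p = 0.1, adjusted over 6 ratios 0.12). With 3 samples against 3 this test cannot pass 0.05, although no RUNX1 sample overlapped a control sample.

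U13 was measured mainly as SNORD13, the most abundant of the 8 entries. SNORD13 is 104 bases long and lies on chromosome 8 of GRCh38, at 33513475 to 33513578 on the plus strand, opposite an untranslated region of TTI2. Whether the counting used strand is not given in the sources used here, so reads of TTI2 cannot be told apart from those of SNORD13. SNORD13 had 1225, 4489 and 4339 counts in the control samples, or 586, 557 and 571 CPM, and 4698, 2675 and 4998 counts in the RUNX1 samples, or 407, 428 and 729 CPM. RUNX1 replicates 1 and 2 lay below all control samples, and RUNX1 replicate 3 lay above them. The mean was 571 ± 14.4 CPM in control and 521 ± 180 CPM in RUNX1 cells, and the difference was within the spread of the RUNX1 samples (log2 fold change -0.13, SE 0.22, adjusted P-value 0.624). Without RUNX1 replicate 3, the library that stood apart, the log2 fold change of SNORD13 was -0.37 (adjusted P-value 0.00181), below the threshold of 0.5 in size. Without RUNX1 replicate 1 or replicate 2 it was 0.03, so the direction for SNORD13 depended on which RUNX1 samples were used.

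The snoU13 entry was higher in RUNX1 cells. It had 18, 91 and 86 counts in the control samples, or 8.61, 11.3 and 11.3 CPM, and 227, 137 and 146 counts in the RUNX1 samples, or 19.7, 21.9 and 21.3 CPM. All RUNX1 samples were above all control samples, and the RUNX1 samples lay close together, replicate 3 included. The mean level rose 1.96-fold, from 10.4 ± 1.56 CPM to 21 ± 1.15 CPM (log2 fold change 0.97, SE 0.17, adjusted P-value 0.00115). Without RUNX1 replicate 3 the log2 fold change was 1.02. By library size only, without TMM, snoU13 was at 0.27 (P-value 0.167 in edgeR's quasi-likelihood test) and was not altered.

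The snoU13 entry was a small fraction of the U13 counts. For each count of SNORD13 it had 0.0147, 0.0203 and 0.0198 counts in the control samples, and 0.0483, 0.0512 and 0.0292 counts in the RUNX1 samples, where replicate 3 was the lowest of its group but still above the controls. The log2 ratio of snoU13 to SNORD13 was -5.77 ± 0.24 in control and -4.58 ± 0.45 in RUNX1 cells, a difference of 1.19 (exact permutation test, p = 0.1, adjusted 0.12). Summed, both U13 entries reached 593, 568 and 583 CPM in the control samples and 427, 450 and 751 CPM in the RUNX1 samples, which is the pattern of SNORD13. The sum was 581 ± 12.3 CPM and 543 ± 181 CPM and was not altered (log2 fold change -0.10, SE 0.21, adjusted P-value 0.712). By library size only it was down-regulated, with a log2 fold change of -0.77 (adjusted P-value 0.0281).

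U3 is a highly abundant snoRNA in growing human cells, but its gene copies were almost absent from these counts. SNORD3A, SNORD3B-1, SNORD3B-2 and SNORD3D had 0 counts in all 6 samples, and SNORD3C had 1 count, in control replicate 2. The sum of the 5 copies was therefore 1 count in the whole experiment, at or below the floor of 3 counts in each library, and neither the sum nor a ratio to it was tested. RNU3P3, a U3 pseudogene that was looked at after the values were seen, also had 0 counts in each sample. How reads that match several loci were counted is not given in the sources used here, and whether this set the counts of the copies was not tested. The values say how many reads were assigned to these names, not how much U3 was in the cells.

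The U3-named entry held the U3 counts of the table. It had 21, 59 and 59 counts in the control samples, or 10, 7.32 and 7.77 CPM, and 36, 27 and 30 counts in the RUNX1 samples, or 3.12, 4.32 and 4.38 CPM. All RUNX1 samples lay below all control samples, although the counts were few. The mean fell 2.09-fold, from 8.38 ± 1.46 CPM to 3.94 ± 0.71 CPM (log2 fold change -1.06, SE 0.24, adjusted P-value 0.00434), and the sum with the named copies gave -1.07 (SE 0.24, adjusted P-value 0.00407). Without RUNX1 replicate 1 the log2 fold change of the U3-named entry was -0.87.

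**Figure D2:**
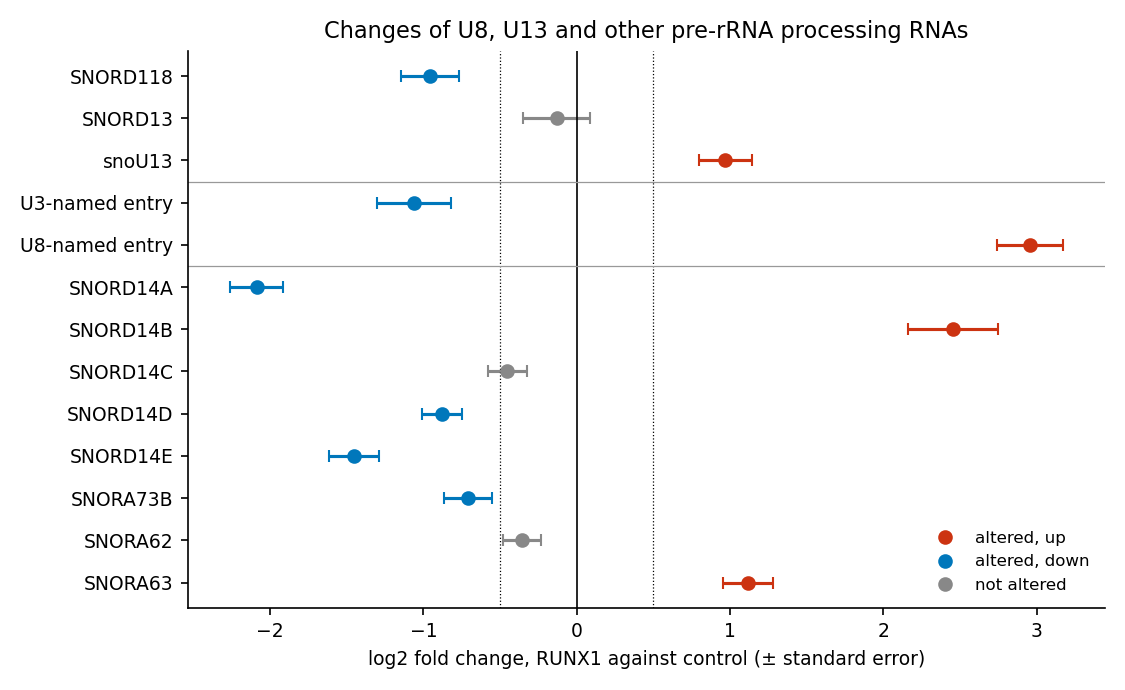
Log2 fold change of RUNX1 against control cells, with its standard error, for the 3 tested entries, the U3-named and U8-named entries and 8 other pre-rRNA processing RNAs. Dotted lines mark 0.5 in size, and entries past it with a P-value under 0.05 are in red (up) or blue (down), with the U8-named entry (2.96) and SNORD14A (-2.09) at the ends.

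The levels of the other entries can also be set against each other within a sample. SNORD118 had 3.81, 4.83 and 4.22 counts in the control samples for each count of the U3-named entry, and 4.42, 4.78 and 4.67 in the RUNX1 samples. Here the groups overlapped, and the log2 ratio of 2.08 ± 0.18 in control and 2.19 ± 0.06 in RUNX1 cells differed by 0.11 (exact permutation test, p = 0.4, adjusted 0.4). A p of this size does not show that the ratio was the same. The ratio of summed U13 to SNORD118 was 15.5, 16.1 and 17.8 in the control samples against 31, 21.8 and 36.7 in the RUNX1 samples, without overlap. On the log2 scale it was 4.03 ± 0.10 and 4.86 ± 0.38, a difference of 0.83 (exact permutation test, p = 0.1, adjusted 0.12). Per 100 bases of RNA, SNORD13 was at 549 CPM in control cells against 501 CPM with RUNX1, and SNORD118 at 26.5 and 13.6 CPM, so that SNORD13 was the more abundant of both by length as well. The reads come from fragments short enough for a small RNA library, so these levels are those of fragments and not of intact snoRNA.

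**Figure D3:**
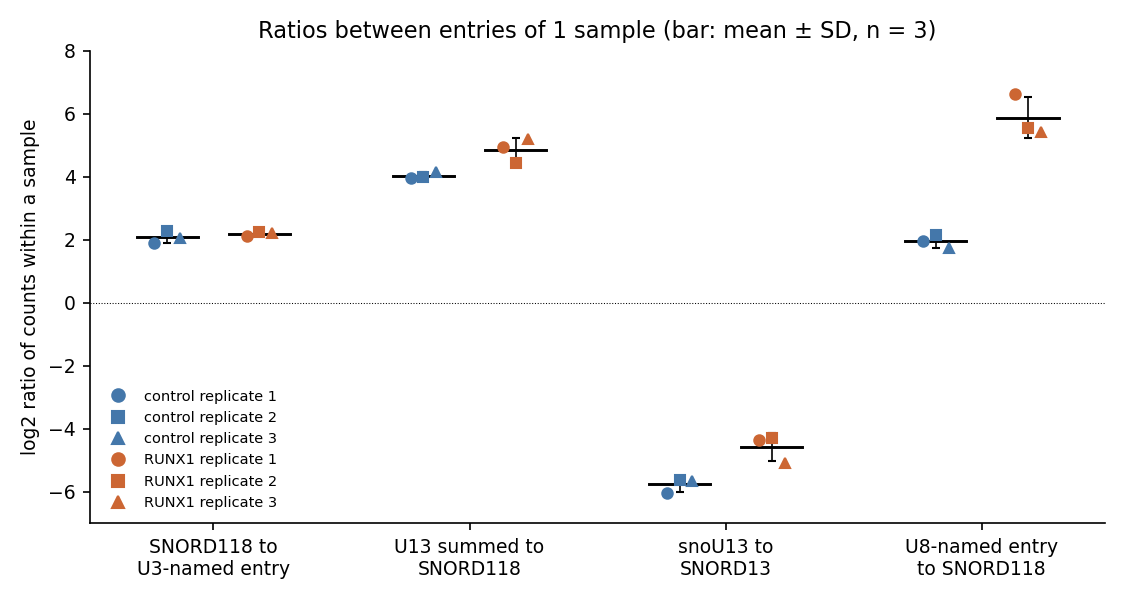
Log2 ratio of counts between entries of the same sample, for control (blue) and RUNX1 samples (orange), with the mean and SD (n = 3). The ratio of SNORD118 to the U3-named entry overlapped between the groups, with means of 2.08 and 2.19, and the other 3 ratios were higher in each RUNX1 sample.

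The share of the snoRNA counts that fell on the 8 entries was 0.701%, 0.671% and 0.673% in the control samples (exact Clopper-Pearson 95% intervals 0.664 to 0.740%, 0.652 to 0.690% and 0.654 to 0.693%). It was 0.531%, 0.546% and 0.909% in the RUNX1 samples (0.517 to 0.546%, 0.526 to 0.566% and 0.885 to 0.934%). RUNX1 replicates 1 and 2 were below all control samples and replicate 3 was above them, as for SNORD13, which makes up most of these counts. The mean share was 0.682% ± 0.0167 and 0.662% ± 0.214, and the groups differed by -0.0195 points (p = 1 in the exact permutation test). With the U3-named and U8-named entries added, the share was 0.844% ± 0.0396 in control and 1.94% ± 0.243 in RUNX1 cells, or 1.09 points more (p = 0.1 in the exact permutation test). As a share of all counts except those of piRNA-annotated entries, the 8 entries took 0.0789% ± 0.00316 in control and 0.0449% ± 0.019 in RUNX1 cells, a change of -0.034 points (p = 0.1 in the exact permutation test, the lowest it can give). All snoRNA entries together also went down, from 11.56% to 6.65% of all counts, so this change does not set the 8 entries apart from the other snoRNAs.

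To see whether other RNAs of pre-rRNA processing moved in 1 direction, a list of 11 was examined. It holds the 5 copies of U14 (SNORD14A to SNORD14E), U22 (SNORD22), the H/ACA snoRNAs U17 (SNORA73A and SNORA73B), E2 (SNORA62) and E3 (SNORA63), and RMRP, the RNA of RNase MRP. Of these, 8 were tested, of which 2 rose, 4 fell and 2 were not altered, with a median log2 fold change of -0.58. The background was 28% up and 29.6% down among all tested small RNAs and 26.5% up and 32.6% down among snoRNAs. SNORA73A and RMRP had no entry under these names in the counts, which held 9 of the 11. SNORD22 was listed at 0 in all 6 samples, while SNHG1, its host gene, which was looked at after the values were seen, had 97474 to 156926 counts in 5 of the samples and 32165 in control replicate 1. SNORD22 overlaps an exon of SNHG1 on the same strand, and whether its reads were counted under SNHG1 was not tested. The 0 is thus not a measure of how much U22 was in the cells.

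The copies of U14, a box C/D snoRNA needed for maturation of the small-subunit ribosomal RNA, went in both directions. SNORD14B, the copy with the lowest control level, rose, and the other copies were lower in RUNX1 cells. The copies were neither compared in sequence nor summed, so how reads were assigned among them was not tested. SNORD14A, in an intron of RPS13, a gene of a ribosomal protein, was at 46.9, 49.7 and 45.7 CPM in the control samples and at 10.1, 9.76 and 13.7 CPM in the RUNX1 samples (log2 fold change -2.09, SE 0.18, adjusted P-value 1.38e-05). SNORD14B from the same host gene was at 22, 22.6 and 17.4 CPM in the control samples and at 153, 116 and 66.8 CPM in the RUNX1 samples (log2 fold change 2.45, SE 0.29, adjusted P-value 0.000109). The groups of both were separate, with RUNX1 replicate 3 nearest to the controls in each. Of the copies in HSPA8, which encodes a heat shock protein, SNORD14D fell from 349 ± 14.2 to 190 ± 18.8 CPM (log2 fold change -0.88, SE 0.13) and SNORD14E from 509 ± 36.6 to 185 ± 35.3 CPM (-1.46, SE 0.16). SNORD14C was at 358 ± 12 and 261 ± 25.8 CPM, and its log2 fold change of -0.45 (SE 0.13, adjusted P-value 0.0133) was under 0.5 in size.

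The H/ACA members of the list went in both directions as well. SNORA73B, which lies in introns of SNHG3 and RCC1 and whose RNA U17 acts in early cleavages of the precursor, fell from 81.8 ± 4.35 to 50 ± 8.25 CPM (log2 fold change -0.71, SE 0.16, adjusted P-value 0.00356). Without RUNX1 replicate 3 its log2 fold change was -0.50 and no longer reached the threshold. The SNHG3 entry, looked at after the values were seen, was at 326 ± 13.9 CPM in control and 123 ± 9.32 CPM in RUNX1 cells. A link between SNHG3 and SNORA73B was not tested. SNORA63, from EIF4A2, a gene of a translation initiation factor, rose from 20.1, 22.1 and 16.7 CPM in control to 44.9, 43.8 and 38.7 CPM in RUNX1 samples (log2 fold change 1.12, SE 0.16, adjusted P-value 0.000348). SNORA62, from the ribosomal protein gene RPSA, was at 56.1 ± 1.62 and 43.7 ± 1.43 CPM, with a log2 fold change of -0.36 (SE 0.12, adjusted P-value 0.0327) that was under 0.5 in size. The control and RUNX1 samples did not overlap for any of the 8, including the 2 that were not altered, against a background of 64.8% of all tested small RNAs and 73.5% of the tested snoRNAs without overlap. SNORD14B, SNORD14C, SNORD14D, SNORA62 and SNORA63 overlap exons or untranslated regions of their host genes on the same strand. Reads of these host genes from there cannot be told apart from those of the snoRNAs.

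The profiles over the 6 samples were compared with those of 225 other tested snoRNAs, by the root mean square difference of log2 CPM centred on each entry's own mean. For SNORD118 the nearest were SNORD73A with 0.19, SNORD60 with 0.19 and SNORD93 with 0.20, against a median of 0.60 over all candidates. Their log2 fold changes were -0.96, -1.05 and -0.74. For summed U13 the nearest were SNORD7 with 0.14, SNORD91B with 0.14 and SNORD88A with 0.16, against a median of 0.50, and their log2 fold changes were -0.19, -0.29 and -0.27. All profiles share the same 6 libraries and scaling, and the likeness is a description.

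The scaling between libraries set how large the changes were. Without TMM, by library size only, the median of all tested small RNAs was at -0.76 and that of the snoRNAs at -0.86, and of the altered small RNAs 18.7% were up instead of 48.6%. SNORD118 then had a log2 fold change of -1.65, SNORD13 one of -0.80 (adjusted P-value 0.0267), and snoU13 one of 0.27 (adjusted P-value 0.207). With TMM factors from the snoRNAs, whose median then was 0.01, these were -0.79, 0.05 and 1.13, and 56.9% of the altered small RNAs were up. With TMM factors from the microRNAs 38.2% were up. SNORD118 and the U3-named entry were lower and the U8-named entry higher under each of the 5 normalizations, with the threshold passed each time, and snoU13 was higher under each but passed it in 4.

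**Figure D4:**
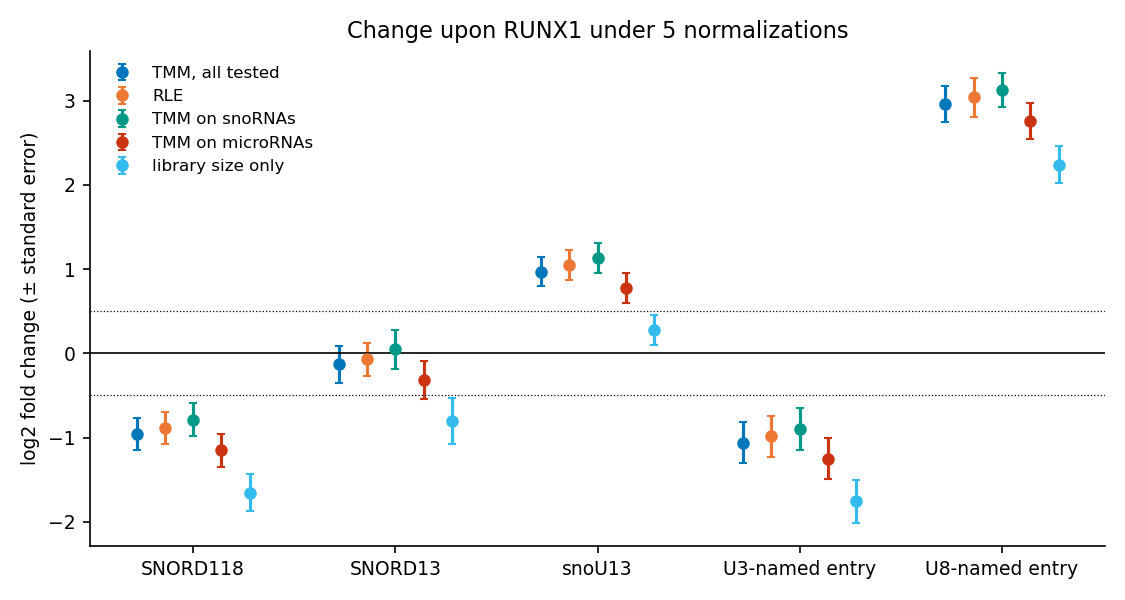
Log2 fold change of RUNX1 against control with its standard error under 5 normalizations, for SNORD118, SNORD13, snoU13 and the U3-named and U8-named entries, with dotted lines at 0.5 in size. SNORD13 ran from -0.80 by library size to 0.05 with factors from the snoRNAs, and the other entries did not change direction.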

How the data were processed

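Small RNA libraries were made with the TruSeq Small RNA kit, sequenced as single reads on a HiSeq2000 and demultiplexed with CASAVA 1.8.2, and the authors analysed them on the OASIS platform. The deposited values are raw counts per annotated small RNA, made by the authors without normalization. The submitters' processing notes name hg19. The aligner and the treatment of reads with several matches are not given in the sources used here. Positions and sequences are from GENCODE 29 (GRCh38) and were matched by gene name only. The 5 footer entries of each file, all at 0, were left out.

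In R 4.3.3, small RNAs were kept by filterByExpr of edgeR 4.0.16 (minimum count 10, total 15), scaled with TMM factors and tested by the quasi-likelihood fit (glmQLFTest), with P-values adjusted by Benjamini-Hochberg over all 947 tested. Sums replaced the single entries in a second fit. Ratios used counts plus 0.5. DESeq2 1.42.0, other normalizations, filters and thresholds and each sample left out were the alternatives. Named RNAs are the 8 entries, the entries of the bare names, the list of 11 and the 3 nearest profiles each, and RNU3P3, SNHG1 and SNHG3 were added later. The members and lists were chosen with earlier results of these data known. Replicate numbers follow the sample titles, since the library of RUNX1 replicate 1 is numbered as replicate 2.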

Additional observations from a re-analysis of the deposited data

How the results depend on the processing

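The number of altered entries stayed at 2 under every alternative but a threshold of 1 on the log2 fold change, which left 0. All altered small RNAs were not counted at that threshold, so this 0 has no background to be read against. By library size the 2 were SNORD118 and SNORD13 instead of SNORD118 and snoU13. Altered small RNAs numbered 545 of 947 tested, and 386 to 761 under the alternatives for which they were counted. The numbers tested differed as well. The 386 were of 654 tested with at least 10 counts in every sample, and the 761 of 3084 tested without the count filter. By library size 641 of 947 were altered. With the related entries added, U8 turned from -0.96 to 2.65, the ratio of U13 to U8 had a log2 difference of -2.79 instead of 0.83, the share of snoRNA counts rose by 1.09 percentage points, U3 had a log2 fold change of -1.07, and the log2 ratios of U8 to U3 and of U13 to U3 differed by 3.73 and 0.95. By library size, summed U13 fell by 0.77 on the log2 scale and passed the threshold, and with factors from the snoRNAs it was 0.077, with SNORD13 at 0.046. Leaving out each sample gave -1.01 to -0.75 for U8, -0.321 to 0.061 for summed U13, -0.366 to 0.034 for SNORD13, 0.66 to 1.04 for the ratio of U13 to U8, and -0.143 to 0.0459 percentage points for the share. Without RUNX1 replicates 1 and 2 in turn, summed U13 was 0.061 and 0.052, SNORD13 was 0.034 and 0.027, and the share differed by 0.0459 and 0.0385 points. Samples left out leave 2 in a group, and the spread was pooled over both groups. Of the other processing RNAs, SNORD14C passed the threshold in 3 alternatives and SNORA62 in 2, and SNORA63, by library size, and SNORA73B lost it in 1 each.

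Same-numbered samples correlated at -0.03, -0.09 and 0.02 in their deviations from the group means, so the replicate numbers showed no pairing. With 3 samples in each group, these values cannot show that the samples were unpaired. The fit with the replicate block altered 546 small RNAs and gave -0.96 for U8 and -0.15 for summed U13, with no call among the named entries changed. U3 copies gave no value by themselves under any alternative, and no SNORD13 pseudogene was analysed here. Control replicate 1 was the shallowest library, in which snoU13 rests on 18 counts and the U3-named entry on 21.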
